A study of Homo sapiens with 8 samples.

Results

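H3K27 acetylation (H3K27ac), a histone mark of active promoters and enhancers, was examined at 9 genes of the NRF2 antioxidant pathway in a pair of pancreatic cancer cell lines. The genes were taken from a fixed list: *NFE2L2*, *KEAP1*, *NQO1*, *HMOX1*, *GCLC*, *GCLM*, *TXNRD1*, *SLC7A11* and *SRXN1*. They are 9 of 19974 protein-coding genes that could be placed on the chromosomes of the peak lists. All deposited peaks that lay in a gene or within 20 kb on either side were assigned to it, which gave 92 of 47614 peaks. Merged wherever they shared at least 1 bp, the peaks formed 33 regions at these genes, of 18678 regions in the genome.

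Both lines derive from MIA PaCa-2, an epithelial pancreatic carcinoma cell line, and both carry the lentiMPHv2 activator plasmid. MP2_HDAC1_OE also carries lentiSAMv2 with an sgRNA to *HDAC1*, so that the gene is driven from its own locus by CRISPR activation. MP2_NTC carries lentiSAMv2 with a non-targeting scrambled sgRNA and serves as the control. Each genotype is 1 stable line, so a difference between lines cannot be told apart from a difference between the populations that were derived. ChIP-sequencing was run on 2 samples per line with an H3K27ac antibody and on 2 samples per line without antibody. The authors deposited a single list of peaks per line, in which both H3K27ac samples are pooled. No replicate values could therefore be had, the error of each value and the sequencing depth are unknown, and no difference between the lines was tested.

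NRF2, encoded by *NFE2L2*, is a transcription factor that pairs with small MAF proteins on the antioxidant response element and turns on genes for glutathione synthesis, thioredoxin recycling and quinone detoxification. KEAP1 holds NRF2 in the cytoplasm and hands it to a CUL3 ubiquitin ligase, and oxidants or electrophiles block this step. In many tumors, pancreatic tumors included, NRF2 activity is known to support growth under oxidative stress and resistance to drugs.

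The MP2_HDAC1_OE list held 25045 peaks and the MP2_NTC list 22569 peaks. The median signal of a peak was 46.5 in MP2_HDAC1_OE (11.0 to 185) and 49.3 in MP2_NTC (11.7 to 220). Whether a signal has the same meaning in both lists is unknown, so signals were turned into ranks, the percent of peaks in the same list with a lower signal. At *HDAC1* itself the shared region at the gene end (32291457 to 32291900) ranked at 93.9 in MP2_HDAC1_OE and 40.4 in MP2_NTC. Another 2 gene-end regions were found only in MP2_NTC. Of these, 1 lay close to the shared region (32292210 to 32292433) and 1 lay at the other end of the gene (32335243 to 32336151). Gene-end regions were present in both lines at 3 of 6 epithelial markers (*KRT8*, *KRT18* and *KRT19*, but not *KRT7*, *EPCAM* or *CDH1*), at 2 of 4 mesenchymal markers (*VIM* and *ZEB1*) and at 2 of 8 markers of other cells (*CD68* and *CDH5*). *KRT8* and *KRT18* had the same ranks, 61.1 in MP2_HDAC1_OE and 76.2 in MP2_NTC, and may be counted from the same region. *KRT19* ranked at 42.8 and 6.86, *VIM* at 86.2 and 69.1 and *ZEB1* at 58.9 and 30.8. Of the markers of other cells, *CD68* ranked at 98.8 and 99.3 and *CDH5* at 67.9 and 47.7. Whether the marker regions belong to neighboring genes is not given here.

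H3K27ac was listed at the ends of 8 of the 9 antioxidant genes in both lines. Only *HMOX1* had no region at either end, in either line. The gene end was taken as 2 kb outside to 1 kb inside the gene. By this measure 43.6% of all protein-coding genes had a gene-end region in MP2_HDAC1_OE and 42.5% in MP2_NTC. These shares also count genes that are silent in the cells. The strongest gene-end peak ranked at a median of 89.7 over the 8 genes in MP2_HDAC1_OE (53.7 to 98.1) and at 82.3 in MP2_NTC (49.8 to 90.8). Over all genes with such a peak the medians were 76.6 and 74.7, and 6 of the 8 genes stood above the median in each line.

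**Figure D1:**
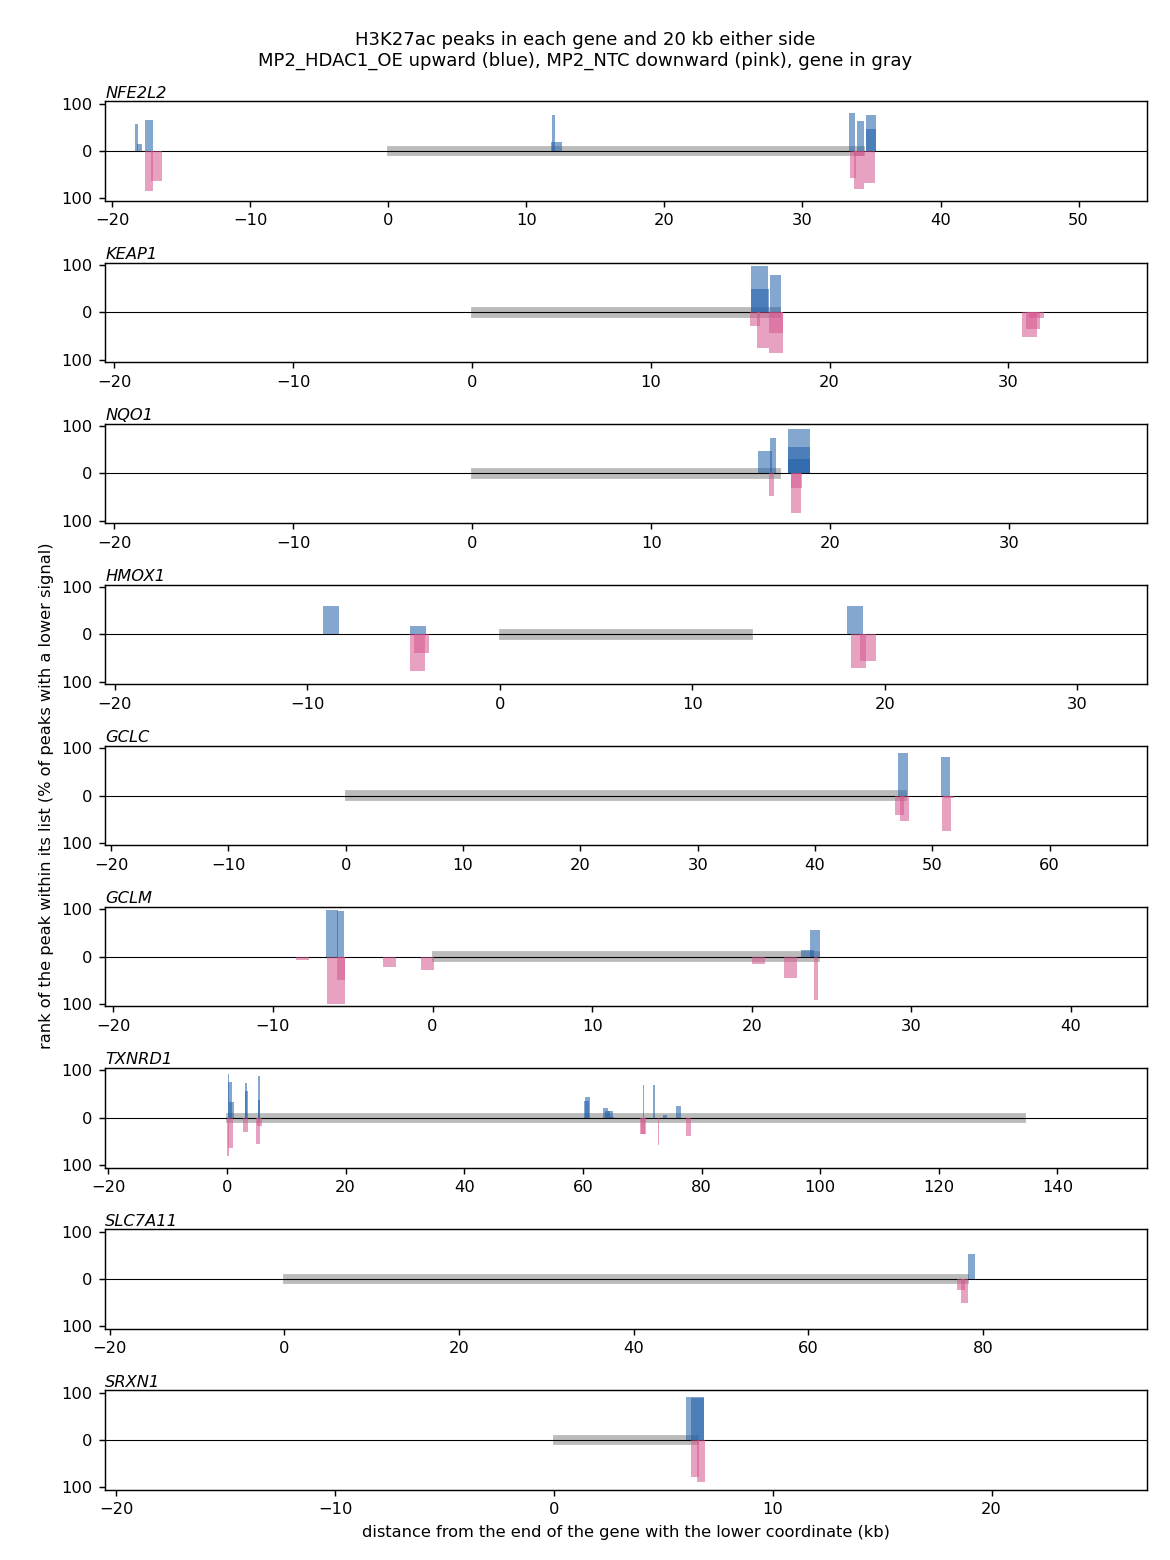
H3K27ac peaks in each of the 9 genes and 20 kb on either side. Bars give the rank of each peak within its list (percent of peaks with a lower signal) for MP2_HDAC1_OE (blue, upward) and MP2_NTC (pink, downward), the gray bar is the gene, and the horizontal axis is the distance in kb from the gene end with the lower coordinate. *GCLM* has 5 regions found only in MP2_NTC, *TXNRD1* has 5 found only in MP2_HDAC1_OE, and *HMOX1* has no peak inside the gene.

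Of the 33 regions, 17 were shared (51.5%, 95% Wilson interval 35.2% to 67.5%, for counting error only). In MP2_HDAC1_OE 8 regions were unique (24.2%, 12.8% to 41.0%), and in MP2_NTC there were also 8. Over the genome 50.7% of regions were shared, 28.6% were unique to MP2_HDAC1_OE and 20.7% were unique to MP2_NTC. Each of these values lies within the interval of the antioxidant genes, which is not a test. The intervals take the regions as independent, but *TXNRD1* held 11 of them and *GCLM* 7. Of the unique regions, *TXNRD1* held 5 of those of MP2_HDAC1_OE and *GCLM* 5 of those of MP2_NTC. Unique MP2_HDAC1_OE regions lay at 3 of the 9 genes (*NFE2L2*, *HMOX1* and *TXNRD1*), against 26.4% of all protein-coding genes. Unique MP2_NTC regions lay at 3 genes as well (*KEAP1*, *GCLM* and *TXNRD1*), against 23.5%. A shared region lay at all 9 genes, against 51.1%. Of the 10 regions at the ends of the antioxidant genes 1 was unique, and of the 23 distal regions 15 were. With the ends of neighboring protein-coding genes counted too, 3 of 15 gene-end regions and 13 of 18 other regions were unique. Over the genome the shares were 37.2% and 64.1%, in the same order. A peak of the other line lay within 500 bp of 4 of the unique regions. At *NFE2L2* and *GCLM* that peak belonged to a shared region, and the other 2 were a pair of unique regions of opposite lines in *TXNRD1*.

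In shared regions the rank shift was taken as the rank of the strongest MP2_HDAC1_OE peak minus that of the strongest MP2_NTC peak, in percentage points. At 7 of the 17 shared regions the rank was at least 10 points higher in MP2_HDAC1_OE, at 4 it was at least 10 points lower and at 6 the shift was smaller. Among all 9477 shared regions 32.8% were higher and 25.6% were lower by this rule. The median shift was 5.43 points at the antioxidant genes and 1.51 points over all shared regions, with an interquartile range from -10.4 to 15.6. The shifts of the pathway thus ran in both directions. Regions of *TXNRD1*, *GCLC*, *NQO1* and *KEAP1* ranked higher in MP2_HDAC1_OE, and regions in the windows of *HMOX1*, *GCLM* and *NFE2L2* ranked lower. The lower *NFE2L2* region and 1 lower *HMOX1* region lay at the ends of neighboring genes. At the end of *NFE2L2* itself the shift was -0.137 points. Of the 14 shared regions that were not at the end of another protein-coding gene, 7 were higher and 2 were lower. All 4 shared regions of *TXNRD1* were among these 7, and the same share over the genome is not given here.

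**Figure D2:**
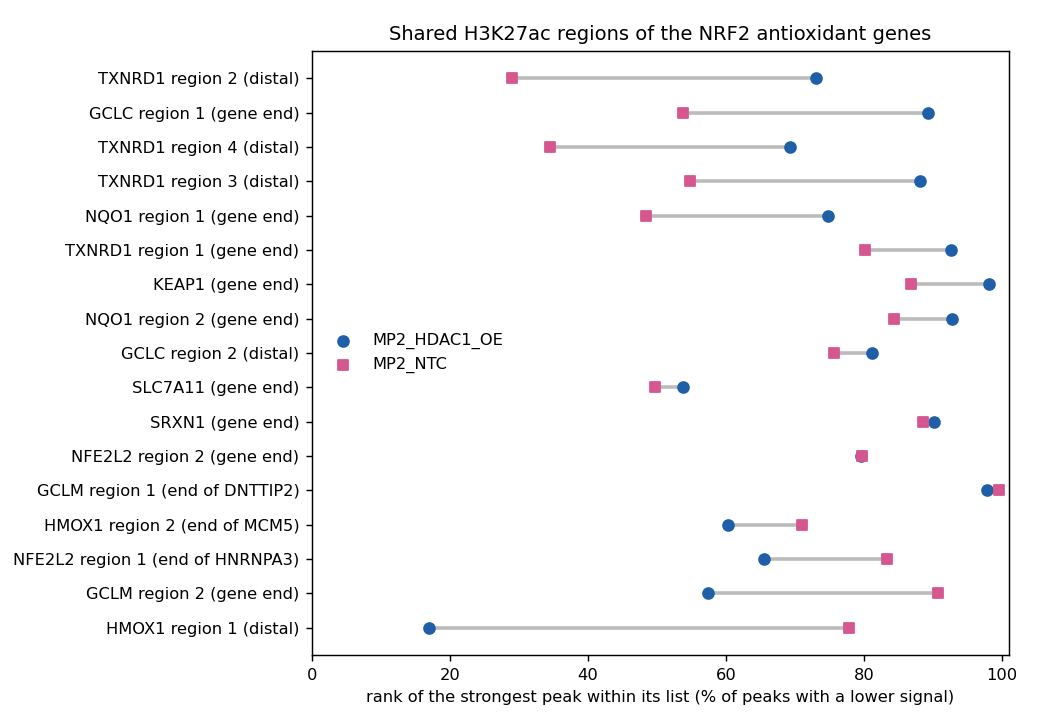
Rank of the strongest peak in each of the 17 shared regions, as the percent of peaks with a lower signal in the same list, for MP2_HDAC1_OE (blue circles) and MP2_NTC (pink squares). Shared regions of a gene are numbered from the lower coordinate. The largest shifts are those of the distal *HMOX1* region, from 77.9 in MP2_NTC to 17.0 in MP2_HDAC1_OE, and of the distal *TXNRD1* region 2, from 28.9 to 73.0.

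**Figure D3:**
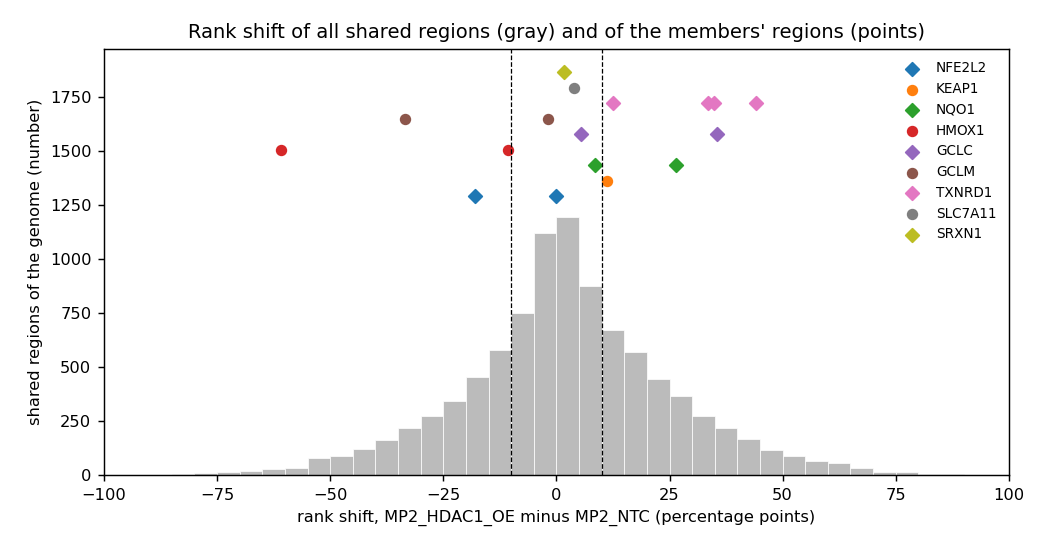
Rank shift, MP2_HDAC1_OE minus MP2_NTC, in percentage points. Gray bars count all 9477 shared regions in bins of 5 points, the colored points are the 17 shared regions of the antioxidant genes (their height only separates the genes), and dashed lines mark shifts of 10 points either way. The points lie on both sides of 0, from -60.8 to 44.1.

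The letters of the antioxidant response element core, TGACNNNGC, were searched on both strands of the promoter windows that RefSeq gives for GRCh38.p14, each from 250 bp before to 50 bp after a listed start. Promoter windows matched 7 of the 9 genes, with 10 windows. *HMOX1* and *SLC7A11* have no entry. The core was found in 4 of the 10 windows, at *GCLM*, *KEAP1* and *TXNRD1*, against 13.3% of all promoter windows. TGACTCA, the AP-1 site, was found in 0 of the 10 windows, against 4.95% of all. It shares its first 4 letters with the core, and TGACTCAGC, which holds both, was also found in 0 of the 10. A match is a description of letters and was not shown to be bound by NRF2.

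The 6 matches are shown because they can be set against the edges of the H3K27ac peaks, with the core in capitals and 10 flanking bases on each side.
*GCLM*, chr1:93909446-93909474, + strand: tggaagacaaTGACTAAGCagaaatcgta
*KEAP1* match 1, chr19:10502784-10502812, + strand: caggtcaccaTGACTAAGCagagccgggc
*KEAP1* match 2, chr19:10502807-10502835, - strand: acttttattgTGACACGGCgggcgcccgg
*TXNRD1* match 1, chr12:104215670-104215698, + strand: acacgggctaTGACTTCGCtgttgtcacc
*TXNRD1* match 2, chr12:104215761-104215789, - strand: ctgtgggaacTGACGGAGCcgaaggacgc
*TXNRD1* match 3, chr12:104286920-104286948, - strand: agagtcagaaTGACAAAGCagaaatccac

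The *GCLM* core and the first *KEAP1* core have the same 9 letters. At *GCLM* the core lay 34 bp before the start, outside the peaks of both lines, and the nearest peak edge was at 15 bp in MP2_HDAC1_OE and 128 bp in MP2_NTC. Both *KEAP1* cores lay before the second listed start. The second one was inside peaks of both lines, and the first was inside an MP2_NTC peak but shared only 1 base with an MP2_HDAC1_OE peak. None of the *TXNRD1* cores lay in a peak of either line. The first *TXNRD1* core was 205 bp from the nearest MP2_HDAC1_OE peak and 181 bp from the nearest MP2_NTC peak, the second was 114 bp and 90 bp away, and the third was 603 bp and 447 bp away.

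A peak covered 5 of the 10 listed starts in MP2_HDAC1_OE and 6 in MP2_NTC, and 4 starts were covered in both lines. The start of *NQO1* and both starts of *TXNRD1* were covered in neither line, with peaks close by on 1 or both sides. At *GCLM* the start was covered in MP2_HDAC1_OE alone, by a peak that began at -11 bp from it, and the nearest MP2_NTC peak began at 102 bp. The second starts of *KEAP1* and *NFE2L2* were covered in MP2_NTC alone. In MP2_HDAC1_OE they fell in short gaps between peaks, with edges at -31 bp and 8 bp at *KEAP1* and at -116 bp and 25 bp at *NFE2L2*. These differences rest on the edges of peaks. The share of all listed starts that peaks cover is not given here.

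**Figure D4:**
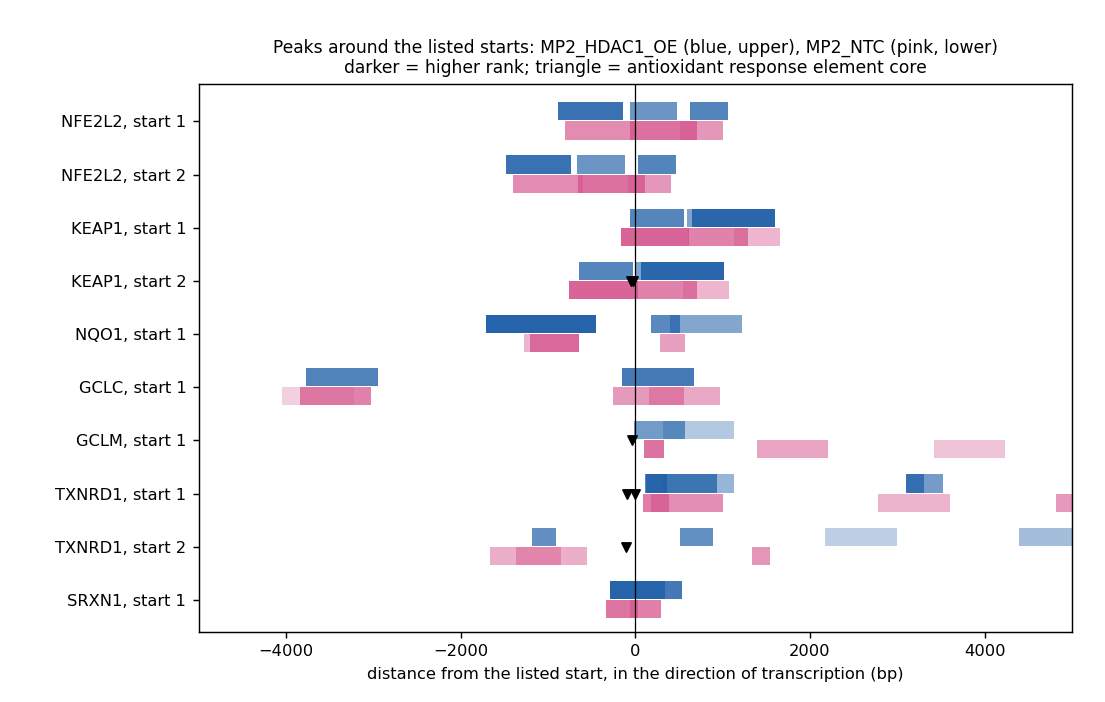
H3K27ac peaks within 5 kb of the 10 listed starts of 7 genes, in bp from the start in the direction of transcription. Blue bars are MP2_HDAC1_OE peaks and pink bars MP2_NTC peaks, darker bars have a higher rank, and black triangles mark cores of the antioxidant response element. In *NQO1* and at both *TXNRD1* starts no peak of either line crosses the line at 0.

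*NFE2L2*, which encodes NRF2, spans chromosome 2 from 177230303 to 177264727 in GRCh38. Its gene-end region (177263663 to 177265617) covers both listed starts and was shared. The strongest peak had a signal of 67.4 in MP2_HDAC1_OE and 73.0 in MP2_NTC, and the ranks of 79.5 and 79.7 gave a shift of -0.137 points. Of all shared regions 44.9% had a shift at least as low. The promoter of the transcription factor itself thus held almost the same place in both lists, although the summits of the strongest peaks lay 480 bp apart. Inside the gene, 21241 bp from the nearest listed start, a region at 177242071 to 177242890 was found only in MP2_HDAC1_OE, with a signal of 63.4 and a rank of 75.7. Unique MP2_HDAC1_OE regions of the genome had a median rank of 41.6. The nearest MP2_NTC peak was 20830 bp away.

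The other regions near *NFE2L2* lay 16383 bp and 17869 bp away, at the end of *HNRNPA3*, which encodes an RNA-binding protein. The shared region there (177212677 to 177213920) had a signal of 55.4 in MP2_HDAC1_OE and 77.9 in MP2_NTC, with ranks of 65.5 and 83.4 and a shift of -17.9 points. A unique MP2_HDAC1_OE region (177211924 to 177212434) with a rank of 56.3 lay beside it, 243 bp from the nearest MP2_NTC peak. Because these regions mark the end of another gene, the lists do not show that they belong to *NFE2L2*.

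*KEAP1*, the inhibitor of NRF2, lies on chromosome 19 from 10486125 to 10503356. Its gene-end region (10501703 to 10503526) held the highest rank of the 8 genes in MP2_HDAC1_OE. The strongest peak had a signal of 112 and a rank of 98.1 in MP2_HDAC1_OE, and a signal of 83.6 and a rank of 86.8 in MP2_NTC, a shift of 11.3 points. Among all shared regions 31.0% had a shift at least as high. The strongest summits lay 654 bp apart, with the MP2_HDAC1_OE summit deeper in the gene. When the signals of all peaks of a region were summed before ranking, the shift was 0.586 points. At the end of *S1PR5*, a receptor for sphingosine-1-phosphate, a region (10516890 to 10518110) with a signal of 51.1 and a rank of 53.1 was found only in MP2_NTC, 13534 bp beyond *KEAP1*.

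*GCLC* and *GCLM* encode the catalytic and the modifier subunit of glutamate-cysteine ligase, the rate-limiting enzyme of glutathione synthesis. By the strongest peak, their shared gene-end regions ranked in opposite directions. *GCLC* lies on chromosome 6 from 53497341 to 53545101, and its gene-end region (53544130 to 53545362) covers the listed start. The signal was 81.1 in MP2_HDAC1_OE and 51.5 in MP2_NTC, and the rank of 89.3 against 53.8 gave a shift of 35.5 points. Of all shared regions, 8.0% had a shift at least as high. The call rests on the strongest peak, because MP2_NTC had 2 peaks in the region and MP2_HDAC1_OE had 1, and the shift of the summed signals was -5.69 points. A distal region 2950 bp outside the gene (53548051 to 53549147) had signals of 69.2 and 68.4 and a shift of 5.43 points.

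*GCLM* lies on chromosome 1 from 93885199 to 93909430 and had the most regions unique to MP2_NTC. At the start of the gene, the shared region (93908297 to 93909441) had a signal of 50.4 in MP2_HDAC1_OE and 91.8 in MP2_NTC. Its rank was 57.3 against 90.8, a shift of -33.4 points, and 6.66% of all shared regions had a shift at least as low. The strongest summits lay 7 bp apart. With summed signals the shift was -8.27 points. All of the 5 regions unique to MP2_NTC were single peaks of 820 bp, with signals from 18.8 to 46.5 and ranks from 7.07 to 44.8. Inside the gene, 2 of them lay 1393 bp and 3420 bp from the start. Another 2 lay outside the low end, and the region at that end (93884478 to 93885297) had a signal of 37.5 and a rank of 27.6. Unique MP2_NTC regions had a median rank of 39.1 over the genome.

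Peaks covered 2244 bp of the *GCLM* window in MP2_HDAC1_OE and 5445 bp in MP2_NTC. Among all protein-coding genes, 0.275% had 5 or more regions unique to MP2_NTC, a number that was chosen after the values of *GCLM* and *TXNRD1* were seen. Within 2 Mb on either side of the *GCLM* window, 10 of 52 regions were unique to MP2_NTC and 18 were unique to MP2_HDAC1_OE, the opposite order to that at *GCLM*. The strongest region of the window (93878549 to 93879718) marked the end of *DNTTIP2*, with ranks of 97.8 in MP2_HDAC1_OE and 99.6 in MP2_NTC.

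*SLC7A11*, the cystine transporter that supplies cysteine for glutathione, lies on chromosome 4 from 138164097 to 138242349 and had 1 region in all. This gene-end region (138241177 to 138243163) had signals of 48.4 in MP2_HDAC1_OE and 49.2 in MP2_NTC and ranks of 53.7 and 49.8, the lowest of the 8 gene-end ranks in MP2_HDAC1_OE. The shift was 3.97 points. The region was shared by 61 bp, since the MP2_HDAC1_OE peak lay almost wholly outside the gene and the 2 MP2_NTC peaks lay mostly inside it, with the strongest summits 759 bp apart. Over all shared regions the median distance of these summits was 69 bp. The ranks of *SLC7A11* therefore compare adjacent rather than identical stretches.

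*TXNRD1* encodes cytosolic thioredoxin reductase, which keeps thioredoxin reduced with electrons from NADPH. It is the longest of the 9 genes (134529 bp, chromosome 12 from 104215779 to 104350307) and held 11 of the 33 regions. All 4 shared regions ranked at least 10 points higher in MP2_HDAC1_OE. At the first start (104215869 to 104216912) the signal was 88.1 in MP2_HDAC1_OE and 73.6 in MP2_NTC, with ranks of 92.7 and 80.1 and a shift of 12.5 points. The strongest summits there lay 1 bp apart.

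Downstream of this start, the region at 104218562 to 104219381 had signals of 61.1 and 38.2 and ranks of 73.0 and 28.9, the largest upward shift among the antioxidant genes with 44.1 points. It was followed by a region at 104220599 to 104221622 with signals of 79.3 and 52.2 and a shift of 33.4 points. Of all shared regions 4.54% and 9.15% had shifts at least as high as these. Next to the second listed start, the region at 104285361 to 104286483 had signals of 58.1 and 41.0 and a shift of 34.8 points, which turned to -14.8 points with summed signals, since MP2_NTC had 2 peaks there and MP2_HDAC1_OE had 1.

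Inside *TXNRD1*, 5 regions were unique to MP2_HDAC1_OE and 2 were unique to MP2_NTC. All of them lay in the middle of the gene, from 104275956 to 104294048, around the second start. The strongest unique MP2_HDAC1_OE region (104287541 to 104287918) had a signal of 57.3 and a rank of 68.3 and began 509 bp after that start. The ranks of the other 4 ran from 6.50 to 43.7. The stronger region unique to MP2_NTC (104288369 to 104288573) had a signal of 54.0 and a rank of 57.9, and it lay 451 bp from the strongest unique MP2_HDAC1_OE region. The other (104293229 to 104294048) had a rank of 39.2. Of all protein-coding genes, 0.591% had 5 or more regions unique to MP2_HDAC1_OE, and longer genes have wider windows in which to hold them. Peaks covered 6906 bp of the *TXNRD1* window in MP2_HDAC1_OE and 4904 bp in MP2_NTC.

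Peak width and the neighborhood moved with the ranks at *TXNRD1*. At the 3 shared regions past the first one, the strongest peak was 820 bp wide in MP2_NTC and 205 to 373 bp wide in MP2_HDAC1_OE. This width of 820 bp was the commonest in both lists, and peaks of this width had a median rank of 36.1 in MP2_HDAC1_OE and 37.0 in MP2_NTC, against 72.5 and 75.8 for all other peaks. Of the 1655 shared regions in the genome with this pattern of widths, 52.5% ranked at least 10 points higher in MP2_HDAC1_OE. Within 2 Mb on either side of the *TXNRD1* window, 7 of 16 regions were unique to MP2_HDAC1_OE and 2 to MP2_NTC, and 5 of 7 shared regions ranked higher in MP2_HDAC1_OE. Over the rest of chromosome 12, 38.6% of shared regions were higher. The part of peak width and of the chromosomal neighborhood in the result at *TXNRD1* was not tested.

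*SRXN1* encodes sulfiredoxin, which repairs overoxidized peroxiredoxins. It lies on chromosome 20 from 646615 to 653200 and had 1 shared region, over its start (652668 to 653536). The signal was 82.8 in MP2_HDAC1_OE and 86.8 in MP2_NTC, with ranks of 90.2 and 88.5 and a shift of 1.64 points. The region ranked high in both lists, and 49.7% of all shared regions had a shift at least as high.

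*NQO1* encodes a quinone reductase that is a classical target of NRF2 and lies on chromosome 16 from 69709401 to 69726560. Its 2 regions were both shared and lay on either side of the listed start, which no peak covered. The region inside the gene (69725340 to 69726380) had signals of 62.7 in MP2_HDAC1_OE and 48.4 in MP2_NTC and ranks of 74.8 and 48.4, a shift of 26.5 points. Of all shared regions, 13.8% had a shift at least as high. The region outside the gene (69727007 to 69728267), 447 bp from the start, was the stronger one in both lines, with signals of 88.5 and 79.4, ranks of 92.8 and 84.4 and a shift of 8.44 points. In both regions the strongest summits of the lines lay within 29 bp of each other. Peaks covered 2302 bp of the *NQO1* window in MP2_HDAC1_OE and 915 bp in MP2_NTC.

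*HMOX1* encodes heme oxygenase-1, which degrades heme to biliverdin, iron and carbon monoxide. In the mouse, NRF2 is known to act on this gene through upstream enhancers. It lies on chromosome 22 from 35381096 to 35394207 and had no peak inside the gene or at its ends. A shared region lay 3659 bp outside the low end (35376406 to 35377437), with a signal of 26.0 in MP2_HDAC1_OE and 70.9 in MP2_NTC. Its rank of 17.0 against 77.9 gave a shift of -60.8 points, the largest in size among the antioxidant genes, and 0.739% of all shared regions had a shift at least as low. Both strongest peaks were 820 bp wide and their summits lay 36 bp apart. The ratio of the signals relative to all shared regions was -1.39 on the log2 scale, and the shift with summed signals was -66.4 points.

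Farther out, 8348 bp from *HMOX1* (35371929 to 35372748), a region with a signal of 52.5 and a rank of 61.0 was found only in MP2_HDAC1_OE, and the nearest MP2_NTC peak was the shared region just described. The neighboring pair thus stood in opposite order in the lines. On the other side of *HMOX1*, a shared region at the end of *MCM5*, a subunit of the replicative helicase, had a shift of -10.7 points (60.3 in MP2_HDAC1_OE and 71.0 in MP2_NTC). Within 2 Mb on either side of the window, 5 of 8 shared regions were lower in MP2_HDAC1_OE and 1 was higher, with a median shift of -11.3 points, compared with 30.8% lower and 28.4% higher over the rest of chromosome 22. The part of this neighborhood in the result at *HMOX1* was not tested.

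The other genes of the pathway were read from a list of 48 regulators, partners and targets. Of these, 34 (70.8%) had a gene-end region in both lines, 4 in MP2_HDAC1_OE only, 3 in MP2_NTC only and 7 in neither. Over all protein-coding genes the shares were 37.4%, 6.20%, 5.08% and 51.3%. The 71 shared regions of these genes split into 21 higher and 22 lower in MP2_HDAC1_OE, with a median shift of -2.21 points. Over all 9477 shared regions 32.8% were higher and 25.6% were lower, with a median shift of 1.51 points. The larger number of higher than lower regions at the antioxidant genes was thus not repeated in this list. The difference between the lists was not tested.

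**Figure D5:**
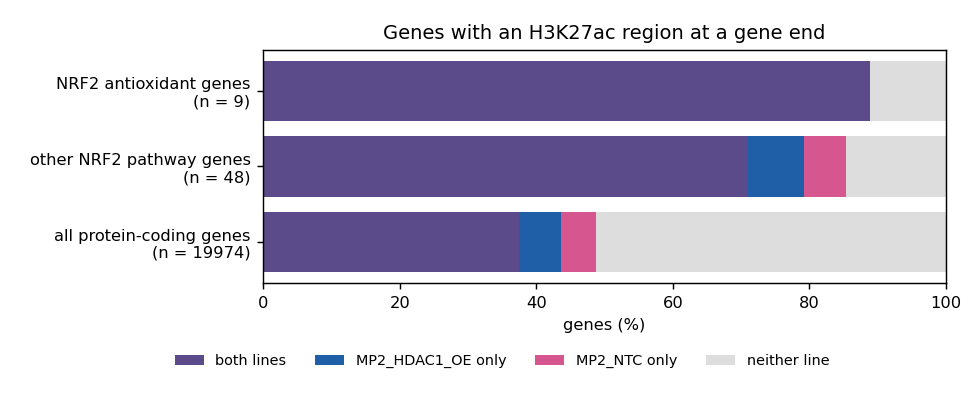
Share of genes (percent) with an H3K27ac region at a gene end in both lines (purple), in MP2_HDAC1_OE only (blue), in MP2_NTC only (pink) or in neither (gray), for the 9 NRF2 antioxidant genes, the 48 other NRF2 pathway genes and all 19974 protein-coding genes. Regions in both lines were listed at 88.9%, 70.8% and 37.4% of the genes.

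Shifts of these genes were read at the shared gene-end region where the sum of both ranks was highest. Among the 48 genes, *SOD1*, the cytosolic superoxide dismutase, had the largest upward shift at a shared gene-end region, 58.6 points, with a rank of 94.7 in MP2_HDAC1_OE and 36.1 in MP2_NTC. The *SOD1* window held 1 MP2_HDAC1_OE peak that covered 221 bp and 2 MP2_NTC peaks that covered 820 bp. The part of peak width in this shift was not tested. *SOD1* was followed by *TKT*, a transketolase of the pentose phosphate pathway, with 48.5 points (84.1 and 35.6). The ferritin light chain gene *FTL* had a shift of 43.9 points (88.1 and 44.1), the ferritin heavy chain gene *FTH1* one of 20.1 points (74.7 and 54.7) and *BLVRA*, a biliverdin reductase, one of 27.1 points (51.3 and 24.1). *FTH1* also had a gene-end region found only in MP2_NTC with a rank of 79.4, so its strongest gene-end peak ranked higher in MP2_NTC, and its second shared region had a shift of -5.51 points. Reads of *FTL* and *FTH1* may be shared with their processed pseudogenes, so these values are uncertain.

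The largest downward shift was at *PRDX1*, a peroxiredoxin, with -73.2 points (24.5 in MP2_HDAC1_OE and 97.8 in MP2_NTC). *BLVRB*, the second biliverdin reductase, had -48.0 points (26.8 and 74.8), beside a gene-end region found only in MP2_NTC with a rank of 48.7. *RBX1*, the RING subunit of the ligase that KEAP1 recruits, had -41.8 points (41.0 and 82.8). A second shared region at the same end of *RBX1* had a shift of 48.4 points (80.9 and 32.5), and a further region was found only in MP2_HDAC1_OE with a rank of 91.2, so that *RBX1* had shifts in both directions. *IDH1*, an NADPH-producing dehydrogenase, had -34.6 points (39.3 and 73.9), beside a gene-end region found only in MP2_HDAC1_OE with a rank of 67.1. *GSS*, the second enzyme of glutathione synthesis, had -27.6 points (67.5 and 95.1). By the strongest peak, the shared gene-end regions of both *GSS* and *GCLM* ranked lower in MP2_HDAC1_OE, while *GCLC* ranked higher. With summed signals the shifts of *GCLM* and *GCLC* were -8.27 and -5.69 points.

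Gene-end regions were found only in MP2_HDAC1_OE at *MAFK*, a small MAF partner of NRF2 (rank 78.7), at *TALDO1*, a transaldolase (76.1), at *CAT*, catalase (53.0), and at *ME1*, cytosolic malic enzyme (48.9). They were found only in MP2_NTC at *CUL3*, the scaffold of the ligase that degrades NRF2 (73.8), at *SOD2*, mitochondrial superoxide dismutase (67.0), and at *TXNIP*, an inhibitor of thioredoxin (66.9). The *SOD2* region (159760954 to 159762541) lay at the high end of the gene. Inside *SOD2*, peaks of both lines reached within 25 bp of a listed start (159693241), so that start was not marked in MP2_NTC alone. The antioxidant response element core was found in 13 of 62 promoter windows of the other pathway genes (21.0%), against 13.3% of all windows. TGACTCA was found in 5 of 62 (8.06%), against 4.95% of all. TGACTCAGC was found in 3 windows, at *GSTP1*, *ME1* and *SLC3A2*, against 0.561% of all promoter windows. The first pair is shown because the copy at *GSTP1* lay in peaks of both lines and that at *ME1* lay in a peak of MP2_HDAC1_OE alone, with all 9 letters in capitals.
*GSTP1*, chr11:67583736-67583764, + strand: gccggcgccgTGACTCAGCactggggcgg
*ME1*, chr6:83431170-83431198, - strand: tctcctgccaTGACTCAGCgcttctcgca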

How the data were processed

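H3K27ac ChIP-sequencing was measured in MP2_HDAC1_OE and MP2_NTC, with 2 antibody and 2 no-antibody samples per line. The authors used the ENCODE pipeline and deposited 1 list of reproducible (IDR) peaks per line, pooled over both samples. The submitters' processing notes name BWA 0.7.12, Picard 1.88, SAMtools and hg38, and the peak caller is not given in the sources used here. The deposited signal is a positive value per peak whose scaling between the lists is unknown. The deposited summit offset was used for distances. The same interval can be listed more than once with different summits. Scores and p-values of the lists were not used. Depth per sample is unknown.

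Peaks were merged at 1 bp, ranked within each list, and placed with a RefSeq gene table (GRCh38.p14), which has no strand or exons, so that introns and exons were not told apart. Promoter windows and starts also came from RefSeq (GRCh38.p14). Ranks were called at 10 points. The genes and lists were chosen with earlier results of these data known. All 9 genes were named, together with *HDAC1*, the 5 other pathway genes with the largest gene-end shift in each direction, and those with gene-end regions in 1 line only; other names (neighboring genes, markers and motif matches) were added after values were seen. The alternatives covered the overlap, gaps, threshold, list size, windows, measure and motif. Scripts ran in Python 3.11.15 (numpy 2.4.6, pandas 2.3.3 and scipy 1.17.1, with figures from matplotlib 3.10.9), and the merging was tested on simulated data.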

Additional observations from a re-analysis of the deposited data

How the results depend on the processing

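Of 79 alternative values of 20 results, 57 belonged to 9 main counts and medians, and the rest to single regions. Among the 57, 3 counts moved by over 1.5 times. Regions unique to MP2_HDAC1_OE numbered 5 with the 75% of peaks with the highest signal, against 8. Shared regions ranked lower in MP2_HDAC1_OE numbered 2 when the call was set at 20 points and also 2 without regions at the end of another protein-coding gene, an alternative chosen after seeing the data, against 4. The other 54 of the 57 values were counts within 1.5 times the main count or medians that passed a fixed limit. That limit was 10 points around the main median, or the same sign for the log2 ratio. It is wide, and it let a change of sign pass. With the rank of the summed signal the median shift was -2.08, against 5.43, and the calls numbered 5 higher and 5 lower. The direction of the median shift therefore depended on the measure. Of the alternative values of the 11 called regions, 17 kept the call, 3 were weaker and 2 changed sign. For single regions, the summed signal turned the shift of the *GCLC* gene end to -5.69 and that of the *TXNRD1* region next to the second start to -14.8, where MP2_NTC had more peaks, and it left *KEAP1* at 0.586 and *GCLM* at -8.27, short of 10 points. With the log2 ratio of the signals 10 of 11 calls were kept, and the *MCM5* region near *HMOX1* was short of the matching limit (-0.32) at -0.24.

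No paired analysis was possible because the deposited lists are pooled over the samples of a line, and no replicate was left out. Depth and replicate spread are unknown, so the shifts have no error. The number of genes with a gene-end region was 8 in each line under every alternative run on that count.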
